A study of Mus musculus with 36 samples.

Results

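The genes described here encode the secreted and receptor proteins through which stromal cells control osteoclasts: Tnfsf11 (RANKL), Tnfrsf11b (osteoprotegerin, OPG), Tnfrsf11a (RANK), Csf1 (M-CSF) and Il34 (IL-34). They were taken by name, 5 of the 24411 genes listed in each RNA-seq library, and 4 of them were among the 12509 genes expressed highly enough to be tested. Their RNA was measured in mesenchymal stem cells (MSCs), the plate-adherent stromal cells that can be grown from many tissues, from 4 sources of untreated C57BL6/J mice aged 8 weeks. The sources were femoral bone marrow (fBM-MSCs, 3 libraries), vertebral bone marrow (vBM-MSCs, 2 libraries), adipose tissue (A-MSCs, 3 libraries) and lung (P-MSCs, 3 libraries), all grown in MesenCult medium for at most 3 passages. Chromatin accessibility was profiled by ATAC-seq, which tags open DNA with a transposase, and is held as 1 pooled list of regions per source. The third vBM-MSC RNA-seq library was not analysed here. Bone was crushed to free its marrow whereas lung and fat were digested with collagenase, so source and isolation cannot be told apart.

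Osteoclasts, the bone-resorbing cells, arise from the monocyte lineage and need 2 signals from neighbouring stromal and osteoblast-lineage cells. RANKL on the stromal cell binds RANK on the precursor and drives its fusion and maturation, and OPG, a soluble decoy receptor, captures RANKL and blocks this step. M-CSF and IL-34 share the receptor CSF1R, which keeps precursors alive and lets them proliferate.

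Among these genes Il34 and Tnfrsf11b were higher in both kinds of bone marrow MSC, Il34 by 24.3-fold and Tnfrsf11b by 3.18-fold over non-bone marrow MSCs. Among the 4 sources the same 2 genes passed, as did 60.6% of the tested genes. Csf1 was abundant in every source, with a log2 fold change of 0.05 ± 0.11 (SE) that did not pass the test, but its mix of transcripts was different in fBM-MSCs. Tnfsf11 and Tnfrsf11a were low, at no more than 1.61 and 0.19 TPM in any of the 11 libraries.

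The DNA at these genes is shown first, because the accessible sites described further on lie in it. All coordinates are of mm10, and each sequence is written 5′ to 3′ along the strand of its gene, with capitals marking a match to 1 of 5 binding motifs searched on both strands. The motifs were TGTGGT for RUNX factors, TGANTCA for AP-1, TGACGTCA for the cAMP response element, a motif of 10 letters for NF-kB and TTCNNNGAA for STAT factors. RefSeq's promoter table (GRCm38.p6) matched 3 of the 5 genes, and the 250 bases upstream of the start site are shown for the pair of ligands it holds and for RANK, since the promoters of Tnfsf11 and Tnfrsf11a were accessible in some sources only and that of Csf1 in all.
Tnfsf11 promoter, chr14:78308044-78308293, minus strand: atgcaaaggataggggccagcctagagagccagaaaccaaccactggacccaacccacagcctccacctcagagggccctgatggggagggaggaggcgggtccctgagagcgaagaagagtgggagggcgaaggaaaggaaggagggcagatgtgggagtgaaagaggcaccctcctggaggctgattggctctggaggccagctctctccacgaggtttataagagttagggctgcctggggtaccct
Csf1 promoter, chr3:107760470-107760719, minus strand: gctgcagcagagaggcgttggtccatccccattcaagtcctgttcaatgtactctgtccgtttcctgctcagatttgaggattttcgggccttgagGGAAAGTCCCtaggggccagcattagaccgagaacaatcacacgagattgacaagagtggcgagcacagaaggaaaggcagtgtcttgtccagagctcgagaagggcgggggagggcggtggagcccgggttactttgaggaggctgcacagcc
Tnfrsf11a promoter, chr1:105780473-105780722, plus strand: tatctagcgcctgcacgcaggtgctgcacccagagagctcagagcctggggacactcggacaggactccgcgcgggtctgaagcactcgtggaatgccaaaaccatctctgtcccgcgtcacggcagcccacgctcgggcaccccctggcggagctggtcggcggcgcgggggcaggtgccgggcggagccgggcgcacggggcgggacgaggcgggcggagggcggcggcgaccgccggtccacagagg

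The Csf1 promoter held 1 match, to the NF-kB motif, and the Tnfsf11 and Tnfrsf11a promoters held none. That motif was found in 1.41% of all 32851 promoters of the table, over the same window. The RUNX motif was in 14% of them, the AP-1 motif in 6.75%, the STAT motif in 7.02% and the cAMP response element in 1.55%. The Tnfrsf11a promoter was 73.6% G and C, the Tnfsf11 promoter 60.4% and the Csf1 promoter 56.4%, against a median of 52.4% over all promoters.

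The next 5 windows, of 221 bases each, cover the distal and intronic sites on which the accessibility results turn. A pair lies far upstream of Tnfsf11, between genes, another pair within introns of Il34, and the last within the final intron of the long Csf1 transcripts.
Tnfsf11, 75.45 kb upstream, past the threshold in the bone marrow lists only, chr14:78383383-78383603, minus strand: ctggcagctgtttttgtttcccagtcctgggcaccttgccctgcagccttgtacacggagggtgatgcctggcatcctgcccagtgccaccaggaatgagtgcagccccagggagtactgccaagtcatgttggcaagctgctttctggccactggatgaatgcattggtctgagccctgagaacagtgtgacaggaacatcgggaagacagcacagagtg
Tnfsf11, 68.14 kb upstream, strongest in the lung and adipose lists, chr14:78376075-78376295, minus strand: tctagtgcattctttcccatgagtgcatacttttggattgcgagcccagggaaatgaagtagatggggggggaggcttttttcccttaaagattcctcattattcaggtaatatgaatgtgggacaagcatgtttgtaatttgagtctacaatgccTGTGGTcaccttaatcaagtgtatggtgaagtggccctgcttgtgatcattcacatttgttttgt
Il34, intron 2, in the bone marrow lists only, chr8:110754820-110755040, minus strand: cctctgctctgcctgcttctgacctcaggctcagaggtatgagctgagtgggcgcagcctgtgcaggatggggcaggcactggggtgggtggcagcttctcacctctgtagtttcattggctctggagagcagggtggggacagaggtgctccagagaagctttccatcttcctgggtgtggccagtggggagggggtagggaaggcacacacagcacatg
Il34, intron 1, in all 4 lists, chr8:110789088-110789308, minus strand: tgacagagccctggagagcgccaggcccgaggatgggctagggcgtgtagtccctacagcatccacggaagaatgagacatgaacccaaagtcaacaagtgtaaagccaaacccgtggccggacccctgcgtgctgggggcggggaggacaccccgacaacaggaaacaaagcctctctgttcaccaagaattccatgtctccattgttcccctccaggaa
Csf1, last intron, strongest in the adipose list, chr3:107743206-107743426, minus strand: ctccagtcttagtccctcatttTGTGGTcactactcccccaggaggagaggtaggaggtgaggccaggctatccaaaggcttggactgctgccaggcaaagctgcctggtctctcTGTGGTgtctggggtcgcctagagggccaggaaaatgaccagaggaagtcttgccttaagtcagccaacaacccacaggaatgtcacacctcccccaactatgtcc

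The adipose-strong Csf1 site held 2 RUNX matches, at positions 23 to 28 and 116 to 121 counted from the 5′ end of the window, and the Tnfsf11 site at 68.14 kb held 1, at positions 157 to 162. The other windows held no match to any of the 5 motifs. Among windows of the same length around all summits past the threshold, the RUNX motif was found in 19.3% of the A-MSC, 18.2% of the P-MSC, 23.6% of the fBM-MSC and 19.1% of the vBM-MSC windows, and at least 1 of the 5 motifs in 45.1 to 54.4%.

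The libraries held between 19569650 and 40517739 expected counts each, and no pair of them was a repeat of the same library. The MSC markers Itgb1, Cd44, Ly6a and Vcam1 summed to between 983 and 2340 TPM in every library (TPM is a transcript's share of the library, scaled by RSEM for length), and the negative markers Pecam1 and Ptprc reached at most 3.84 and 0.35 TPM. Cd34, which the study used as a negative surface marker, was detected at 10.2 to 79.2 TPM in fBM-MSCs, at 7.33 to 7.46 in vBM-MSCs and at no more than 5.15 elsewhere. Spp1 (osteopontin) alone took 26353 to 84015 TPM in fBM-MSCs, and because TPM are shares of a library this lowers the TPM of the other genes there, a shift that the count-based fold changes correct for. The tissues were taken from the same 3 mice, though no source used here ties a replicate number to a mouse, and p-values describe the spread between these 11 libraries.

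**Figure D1:**
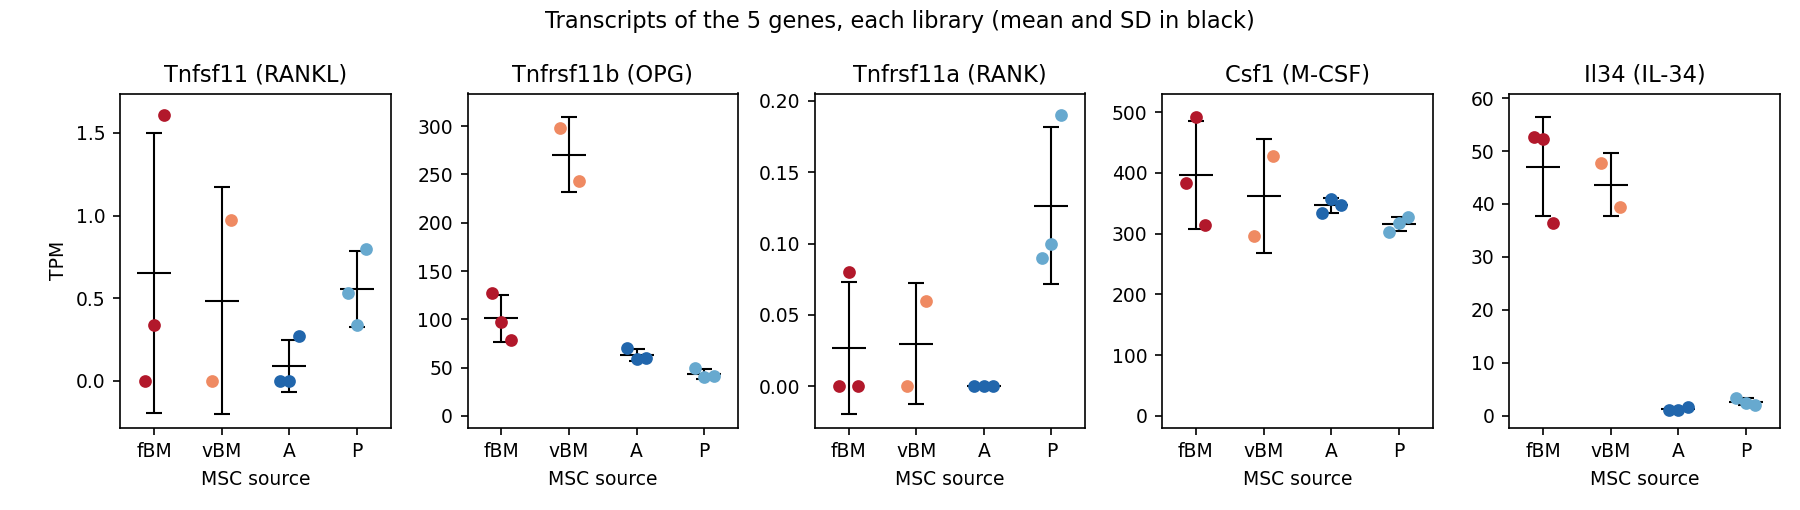
TPM (y axis, linear, a separate scale for each gene) of the 5 genes in the 11 RNA-seq libraries by MSC source (x axis); points are libraries, black bars the mean ± SD (bars reaching under 0 only show the SD). All 5 bone marrow libraries sit at 36.32 TPM or more for Il34 and all 6 others at 3.47 or less, while for Csf1 the bone marrow libraries span the range of all others.

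RANKL is the osteoclast differentiation ligand itself. Tnfsf11 (chr14:78277446-78308043, minus strand, 5 exons) had 0, 0.34 and 1.61 TPM in the fBM-MSC libraries, 0 and 0.97 in vBM-MSCs, 0.53, 0.34 and 0.80 in P-MSCs and 0, 0 and 0.27 in A-MSCs. These levels rested on 0, 15 and 84 counts in fBM-MSCs, 0 and 47 in vBM-MSCs, 30, 15 and 39 in P-MSCs and 0, 0 and 14 in A-MSCs. The sources overlapped, and P-MSCs were the only source in which every library held a read of the gene.

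Summed over libraries, Tnfsf11 reached 1.12 CPM (counts scaled to the library total, with a 95% exact Poisson interval of 0.909 to 1.36) in fBM-MSCs, 0.713 (0.524 to 0.949) in vBM-MSCs, 0.792 (0.632 to 0.981) in P-MSCs and 0.128 (0.0701 to 0.215) in A-MSCs. These intervals cover counting error only, since reads were amplified without molecular identifiers, and the spread between libraries was far wider. A library with 0 counts allows up to 0.0754 to 0.153 CPM at 3 counts, depending on its depth. The log2 fold change of bone marrow over non-bone marrow MSCs was 1.26 ± 1.24 (SE, adjusted p = 0.427), an interval of −1.16 to 3.69, and no pair of sources passed the test. Single libraries decided the estimate: it was −2.43 without vBM-MSC replicate 2, 3.89 without A-MSC replicate 3 and 0.32 without fBM-MSC replicate 3. No difference in Tnfsf11 passed the test with this spread between libraries.

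OPG is the decoy that RANKL meets before RANK. Tnfrsf11b (chr15:54250619-54278484, minus strand, 5 exons) had 126.81, 97.47 and 78.38 TPM in fBM-MSCs, 297.78 and 243.12 in vBM-MSCs, 49.09, 40.51 and 40.95 in P-MSCs and 70.42, 58.93 and 59.50 in A-MSCs. The 4 sources did not overlap in any library, in the order vBM-MSCs, fBM-MSCs, A-MSCs and P-MSCs. The means were 270.4 ± 38.7 TPM (SD, n = 2), 100.9 ± 24.4 (n = 3), 62.95 ± 6.48 (n = 3) and 43.52 ± 4.83 (n = 3) in that order.

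Tnfrsf11b was higher in bone marrow than in non-bone marrow MSCs, its log2 fold change being 1.67 ± 0.14 (SE) with an adjusted p of 3.17e-06, and stood at rank 952 of the 12509 tested genes. It shared this direction with 24.8% of the tested genes, 47.2% differing in either direction. All 5 bone marrow libraries exceeded all 6 others, which held for 10.4% of tested genes. Within bone marrow it was lower in fBM-MSCs than in vBM-MSCs, by a log2 fold change of −1.39 ± 0.20 (adjusted p = 0.00171), a comparison in which 12.8% of tested genes passed. That is 1601 genes, but 610 without vBM-MSC replicate 1 and 305 in a model of these sources alone.

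Each of the other pairs also passed for Tnfrsf11b. The log2 fold change of vBM-MSCs was 2.0 ± 0.21 over A-MSCs (adjusted p = 7.33e-05) and 2.73 ± 0.21 over P-MSCs (adjusted p = 4.06e-06), where 25.6% and 38.7% of tested genes passed. That of fBM-MSCs was 1.34 ± 0.19 over P-MSCs (adjusted p = 0.000158), where 47.7% passed, and 0.61 ± 0.19 over A-MSCs (adjusted p = 0.0214), where 40.9% passed. A-MSCs exceeded P-MSCs by 0.73 ± 0.19 (adjusted p = 0.013), where 30.9% passed. The fBM-MSC over A-MSC call was lost without fBM-MSC replicate 1 (0.39, adjusted p = 0.0821), without A-MSC replicate 2 (0.56, adjusted p = 0.0721) and without A-MSC replicate 3 (0.59, adjusted p = 0.0657). The A-MSC over P-MSC call was lost without P-MSC replicate 2 (0.67, adjusted p = 0.0533) and without P-MSC replicate 3 (0.68, adjusted p = 0.0537).

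Setting ligand against decoy, the log2 ratio of Tnfsf11 to Tnfrsf11b, computed on TPM + 0.1, was negative in every library. It was −10.3, −7.79 and −5.52 in fBM-MSCs, −11.5 and −7.83 in vBM-MSCs, −6.29, −6.53 and −5.51 in P-MSCs and −9.46, −9.21 and −7.33 in A-MSCs. In the 4 libraries without a Tnfsf11 count (fBM-MSC and vBM-MSC replicates 1 and A-MSC replicates 1 and 2) the value is set by the pseudocount and the Tnfrsf11b level and is no measured ratio. OPG transcripts outnumbered RANKL transcripts in all 11 libraries. The mean ratio was −8.60 ± 2.36 (SD, n = 5) in bone marrow and −7.39 ± 1.62 (n = 6) in the non-bone marrow libraries, a difference of −1.21 that did not pass an exact two-sided permutation test over the 462 splits (p = 0.329, the same after adjustment over 2 ratios). With a pseudocount of 1 in place of 0.1 the difference was −1.30 with an adjusted p of 0.0455 in the same exact permutation test, so the choice of pseudocount decided the call and neither p is read as a result.

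RANK is the receptor through which osteoclast precursors sense RANKL. Tnfrsf11a (chr1:105780723-105847981, plus strand, 10 exons) had 0, 9 and 0 counts in fBM-MSCs, 0 and 7 in vBM-MSCs, 13, 11 and 22 in P-MSCs and 0, 0 and 0 in A-MSCs. Its level never exceeded 0.19 TPM, and it failed the filter of 1 CPM in 2 libraries. The 3 P-MSC libraries were the highest of the 11 in TPM, at 0.09, 0.10 and 0.19, with the nearest other library at 0.08. Summed over libraries this was 0.434 CPM (95% exact Poisson interval 0.318 to 0.579) in P-MSCs, against 0.102 (0.0465 to 0.193) in fBM-MSCs, 0.106 (0.0427 to 0.219) in vBM-MSCs and 0 of 109150081 counts in A-MSCs, where the upper limit of the same interval is 0.0338 and the limit at 3 counts is 0.0275. These intervals cover counting error only, and the counts of fBM-MSCs and of vBM-MSCs each came from 1 library. In a fit without the filter the gene did not pass the test among the 4 sources (adjusted p = 0.174).

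M-CSF is the main survival factor of macrophages and osteoclast precursors. Csf1 (chr3:107741048-107760469, minus strand, 9 exons) had 383.65, 491.18 and 314.63 TPM in fBM-MSCs, 295.41 and 427.61 in vBM-MSCs, 303.28, 316.78 and 327.36 in P-MSCs and 333.75, 357.45 and 347.70 in A-MSCs. It was the most abundant of the 5 genes in 10 of 11 libraries, the exception being vBM-MSC replicate 1, where Tnfrsf11b had 297.78 TPM. Its sources overlapped, except that every A-MSC library was above every P-MSC library. The bone marrow libraries spanned 295.41 to 491.18 TPM and enclosed the whole non-bone marrow range of 303.28 to 357.45.

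No comparison of Csf1 between sources passed the test, and the log2 fold change of bone marrow over non-bone marrow MSCs was 0.05 ± 0.11 (SE, adjusted p = 0.75), an interval of −0.17 to 0.27. The order of the means was fBM-MSCs (396.5 ± 89.0 TPM, SD), vBM-MSCs (361.5 ± 93.5), A-MSCs (346.3 ± 11.9) and P-MSCs (315.8 ± 12.1), and the first 3 did not differ beyond their spread. All A-MSC libraries were above all P-MSC libraries, but that pair did not pass, at 0.37 ± 0.15 (adjusted p = 0.0839), and passed with DESeq2 (0.38, adjusted p = 0.0376), in a model of those libraries alone (0.37, adjusted p = 0.00058) and without fBM-MSC replicate 3 (adjusted p = 0.0247). Without fBM-MSC replicate 3, fBM-MSCs also exceeded P-MSCs (0.39, adjusted p = 0.0254) and the 4 sources together passed (adjusted p = 0.0425).

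The transcript mix of Csf1 was read from its mean transcript length, which RSEM weights by each transcript's share. The annotation used in the files has 3 Csf1 transcripts, of 4176, 3291 and 2324 bases. The 4176-base form has the full exon 6 (chr3:107748154-107749169), which is 1016 bases long and encodes the part kept in secreted M-CSF. In the 3291-base form exon 6 is 131 bases long (chr3:107748154-107748284), the splice form known to give M-CSF held at the cell surface. The 2324-base form keeps the full exon 6 but ends in an alternative last exon of 246 bases (chr3:107745595-107745840) in place of the 2098-base one (chr3:107741048-107743145), so it differs in the end of the message.

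Mean Csf1 length was 3209, 3201 and 3118 bases in fBM-MSCs, 3495 and 3633 in vBM-MSCs, 3623, 3647 and 3639 in P-MSCs and 3694, 3768 and 3765 in A-MSCs. All 3 fBM-MSC libraries were below all 8 others. Among 3666 genes whose length varied, 3.46% had fBM-MSCs apart from all other libraries and 1.75% had them below, so few genes showed this pattern.

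The 3 transcripts cannot be resolved from 1 mean, but bounds follow. In fBM-MSCs the 2324-base form made up at least 8.50, 9.29 and 17.9% of Csf1 transcripts in the 3 libraries and at most 52.2 to 57.1%. In the other sources its lower bound was 0 and its upper bound 29.3 to 36.8% in vBM-MSCs, 28.5 to 29.9% in P-MSCs and 22.1 to 26% in A-MSCs. Conversely, the 4176-base form was at least 45.5 to 53.9% in A-MSCs, 37.5 to 40.3% in P-MSCs and 23.1 to 38.6% in vBM-MSCs, while in fBM-MSCs it could be absent and was at most 42.9 to 47.8%. Counts per gene are not corrected for this difference in length: the log2 fold change of fBM-MSCs over A-MSCs was −0.14 on counts and 0.17 on log2(TPM + 1), neither past the test.

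**Figure D2:**
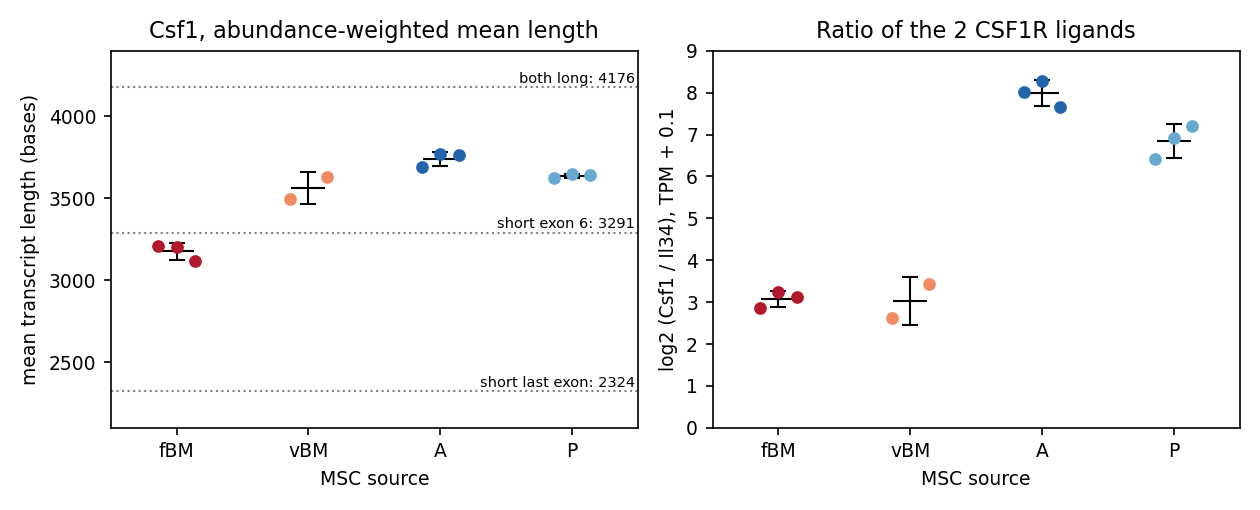
Left, mean Csf1 transcript length in bases (y axis, not starting at 0) by MSC source, with dotted lines at the 3 annotated transcripts; right, log2 ratio of Csf1 to Il34 on TPM + 0.1. Points are libraries and bars the mean ± SD: the fBM-MSC lengths (3118 to 3209) lie below the other 8, and the ratios of both bone marrow sources (2.62 to 3.44) lie below those of A-MSCs and P-MSCs (6.41 to 8.28).

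IL-34 binds the same receptor as M-CSF and is known best from skin and brain, where it maintains resident macrophages. Il34 (chr8:110741829-110805924, minus strand, 7 or 8 exons) had 52.64, 52.20 and 36.32 TPM in fBM-MSCs, 47.83 and 39.44 in vBM-MSCs, 3.47, 2.52 and 2.12 in P-MSCs and 1.20, 1.05 and 1.62 in A-MSCs. The bone marrow libraries were all above the others, and the lowest of them, fBM-MSC replicate 3 at 36.32 TPM, was far from the highest non-bone marrow library at 3.47. The non-bone marrow levels rested on 39 to 148 counts, the bone marrow levels on 1062 to 1734.

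The log2 fold change of Il34 of bone marrow over non-bone marrow MSCs was 4.60 ± 0.20 (SE, adjusted p = 6.4e-08), rank 193 of 12509. It was 4.47 to 4.72 when each library was left out in turn. Against A-MSCs the log2 fold change was 5.10 ± 0.28 in fBM-MSCs (adjusted p = 5.85e-07) and 4.96 ± 0.29 in vBM-MSCs (adjusted p = 2.39e-06). Against P-MSCs it was 4.24 ± 0.26 in fBM-MSCs (adjusted p = 6.06e-07) and 4.10 ± 0.27 in vBM-MSCs (adjusted p = 1.7e-06).

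The 2 bone marrow sources did not differ in Il34 beyond their spread, at 47.05 ± 9.30 TPM (SD, n = 3) and 43.63 ± 5.93 (n = 2), with a log2 fold change of 0.14 ± 0.25 (adjusted p = 0.771) and an interval of −0.36 to 0.63. A-MSCs, at 1.29 ± 0.30 TPM, were below P-MSCs, at 2.70 ± 0.69, by a log2 fold change of −0.86 ± 0.27 (adjusted p = 0.0289). That call was lost without A-MSC replicate 1 (−0.81, adjusted p = 0.0844), A-MSC replicate 2 (−0.72, adjusted p = 0.102), P-MSC replicate 1 (−0.62, adjusted p = 0.125) or P-MSC replicate 2 (−0.92, adjusted p = 0.0525), and in a model of those 2 sources alone (−0.86, adjusted p = 0.141).

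Il34 has 2 transcripts in the annotation used, of 1741 and 1859 bases, the longer with an extra exon of 118 bases (chr8:110746818-110746935). The longer form made up 2.90 to 10.7% of Il34 transcripts in fBM-MSCs and 5.86 to 7.56% in vBM-MSCs. In the sources with few counts it ranged from 0 to 19.9% (A-MSCs) and from 0 to 2.75% (P-MSCs). The shorter form was therefore the major one in every library.

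The balance of the CSF1R ligands followed from these levels. The log2 ratio of Csf1 to Il34 on TPM + 0.1 was 2.86, 3.23 and 3.11 in fBM-MSCs, 2.62 and 3.44 in vBM-MSCs, 6.41, 6.92 and 7.21 in P-MSCs and 8.01, 8.28 and 7.66 in A-MSCs. Csf1 exceeded Il34 in every library, by the least in bone marrow. The means were 3.05 ± 0.32 (SD, n = 5) in bone marrow and 7.41 ± 0.70 (n = 6) in non-bone marrow MSCs, a difference of −4.36 (exact two-sided permutation p = 0.00216, the smallest that 462 splits allow, adjusted p = 0.00433 over 2 ratios). Since Csf1 did not pass the test, the difference carries the same information as the Il34 levels.

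**Figure D3:**
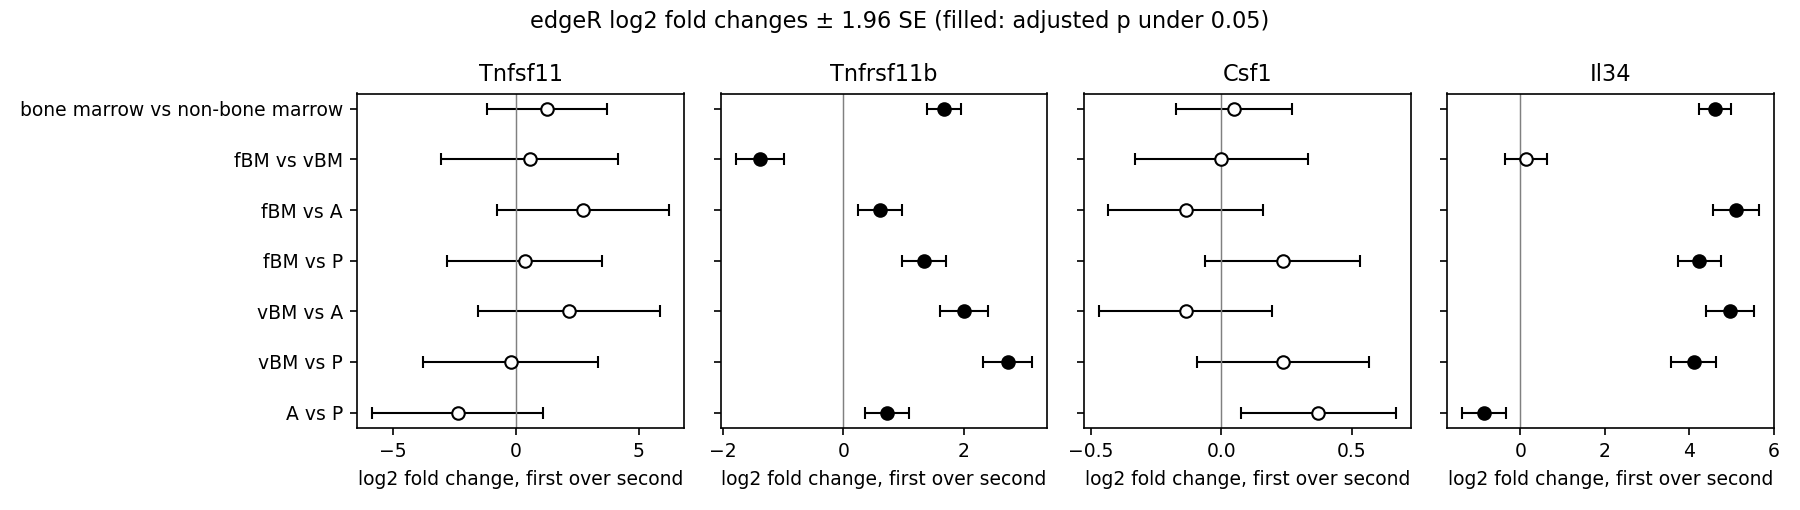
edgeR log2 fold changes (x axis, first source over second, a separate scale for each gene) of the 4 tested genes in 7 comparisons; bars are 95% intervals from the SE and filled points have an adjusted p under 0.05. Every comparison is filled for Tnfrsf11b, all but fBM-MSCs against vBM-MSCs for Il34, and none for Csf1 or Tnfsf11.

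In bulk RNA a higher level can mean more cells that express a gene or more RNA in each, and these cannot be told apart. Of 10 markers of osteoblast-lineage cells 8 were tested, 7 rose in bone marrow MSCs and none fell, against 24.8% higher and 22.4% lower among all tested genes. Their summed level was 1450 to 6310 TPM in fBM-MSCs, 767 to 1570 in vBM-MSCs, 501 to 565 in P-MSCs and 542 to 775 in A-MSCs, and no marker was at 0 in all libraries. Alpl, Ibsp and Dmp1 averaged 78.8, 504.8 and 98.7 TPM in fBM-MSCs and 44.2, 168.9 and 8.99 in vBM-MSCs. In either non-bone marrow source they averaged no more than 0.32, 0.027 and 0.070 TPM. Within bone marrow these means were higher in fBM-MSCs, whereas Tnfrsf11b was higher in vBM-MSCs and Il34 did not differ beyond its spread. The part of osteoblast-lineage cells in the Il34 and Tnfrsf11b differences was not tested.

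The macrophage markers summed to 45.3 to 72.0 TPM in fBM-MSCs, 25 to 56.3 in vBM-MSCs, 15.4 to 17.2 in P-MSCs and 19.8 to 27.9 in A-MSCs. Only 5 of 18 were high enough to be tested, of which Fcer1g and Lyz2 rose and Csf1r fell in bone marrow, where 24.8% of all tested genes were higher and 22.4% lower. Without vBM-MSC replicate 2 only 1 of them rose. Aif1 was at 0 in all libraries, and Ptprc, Adgre1 and Itgam reached at most 0.35, 0.34 and 0.08 TPM. Others of the list were present: Lyz2 averaged 27.0 TPM in fBM-MSCs and 29.2 in vBM-MSCs against 9.27 and 2.09 in A-MSCs and P-MSCs, and Fcer1g had 4.7 to 19.8 TPM in fBM-MSCs, was at 0 in 1 vBM-MSC library and at 8.21 in the other, and was at 0 elsewhere. Cd68, which did not pass, had 12.27 to 18.47 TPM in fBM-MSCs, 0.87 to 2.72 in vBM-MSCs and 3.47 to 7.38 in the other libraries. The part of such cells in the Il34 and Tnfrsf11b differences was not tested. The 9 lymphocyte markers summed to at most 0.22 TPM. Of 7 endothelial markers 5 were tested, 3 fell in bone marrow MSCs (Kdr, Cdh5 and Emcn), as did 22.4% of all tested genes, and none rose, the sum reaching 59.3 TPM in 1 A-MSC library against at most 8.04 in bone marrow.

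Over the 11 libraries, the genes most like Il34 by the Pearson correlation of log2(TPM + 1) were Edil3 (r = 0.986), Penk (0.983) and Rspo2 (0.979). Edil3, a matrix protein, averaged 26.9 TPM in fBM-MSCs and 15.3 in vBM-MSCs against 0.463 in P-MSCs and 0.037 in A-MSCs. Penk, the precursor of enkephalins, averaged 76.9 and 55.3 against 5.17 and 1.01. Rspo2, a Wnt agonist, averaged 10.6 and 14.9 against 0.983 and 0.020. These points share their libraries and the grouping into 4 sources, so the values are descriptions.

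Tnfrsf11b was most like Chpt1 (r = 0.974), a phospholipid enzyme, Reck (0.969), an inhibitor of matrix metalloproteinases, and Cdkn1a (0.969), the cell cycle inhibitor p21. All had their highest level in vBM-MSCs, Cdkn1a at 833.6 TPM on average against 428.9 in fBM-MSCs, with A-MSCs at 378.9 and P-MSCs at 298.9. Reck averaged 20.8 TPM in vBM-MSCs, 10.4 in fBM-MSCs, and 5.07 and 3.01 in A-MSCs and P-MSCs. Csf1 was most like Dbn1 (0.908), Dnajc5 (0.901) and Gpnmb (0.895), and Tnfsf11, in its low counts, like Prss12 (0.93), Ppp1r13b (0.904) and Ccdc166 (0.897).

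Of 8 other binding partners and sheddases of these proteins 7 were tested, 3 rose (Ptprz1, Lgr4 and Sdc1) and 1 fell (Csf1r) in bone marrow MSCs, beside 24.8% higher and 22.4% lower among all tested genes. Without vBM-MSC replicate 2 the count that fell was 2. The list had a median log2 fold change of 0.17 against 0.03 over all tested genes. Csf1r, the shared receptor of M-CSF and IL-34, averaged 0.74 TPM in fBM-MSCs, 0.89 in vBM-MSCs, 2.54 in P-MSCs and 5.90 in A-MSCs, a log2 fold change of −2.24 ± 0.24 (adjusted p = 1.75e-05). Its libraries ran from 0.60 to 1.16 TPM in bone marrow and from 2.21 to 6.56 elsewhere, so it was lowest where Il34 was highest.

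Ptprz1 and the proteoglycan Sdc1 are further binding partners of IL-34. Ptprz1 averaged 6.32 TPM in fBM-MSCs, 0.51 in vBM-MSCs, 0.20 in P-MSCs and 0.14 in A-MSCs, with a log2 fold change of 3.4 ± 0.65 (adjusted p = 0.00123). Sdc1 was modestly higher, with 58.5 TPM in fBM-MSCs and 61.7 in vBM-MSCs against 37.9 and 41.3 in A-MSCs and P-MSCs, a log2 fold change of 0.60 ± 0.12 (adjusted p = 0.00123). Lgr4, a second receptor for RANKL, averaged 7.12 and 10.7 TPM against 4.57 and 3.54 in the same order of sources, a log2 fold change of 1.14 ± 0.23 (adjusted p = 0.00165). The sheddases Adam10, Adam17 and Mmp14, which release RANKL or M-CSF from the cell surface, did not pass, with log2 fold changes of 0.15, 0.17 and −0.30.

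Stromal inducers of RANKL and OPG, the hormone, cytokine and Wnt pathways that set their expression, were all tested: 10 of 20 rose, 3 fell and 7 did not pass, with a median of 0.51. Among all tested genes 24.8% were higher and 22.4% lower. Pth1r, the parathyroid hormone receptor, averaged 32.6 TPM in fBM-MSCs, 10.5 in vBM-MSCs, 0.18 in P-MSCs and 0.55 in A-MSCs (log2 fold change 5.81 ± 0.71, adjusted p = 5.34e-05). Lifr, the receptor for leukaemia inhibitory factor, averaged 15 TPM in fBM-MSCs, 4.38 in vBM-MSCs, and 0.92 and 0.81 in A-MSCs and P-MSCs (3.06 ± 0.35, adjusted p = 3.52e-05). Lrp5, a Wnt co-receptor, rose from a low level (1.76 ± 0.32, adjusted p = 0.000765).

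The 3 that fell in bone marrow were Il6ra, the IL-6 receptor (log2 fold change −2.01 ± 0.55, adjusted p = 0.0104), Il1r1, the IL-1 receptor (−1.21 ± 0.18, adjusted p = 0.00025), and Creb1, the cAMP-responsive transcription factor (−0.64 ± 0.17, adjusted p = 0.00786). Il1r1 averaged 1.68 TPM in fBM-MSCs, 5.95 in vBM-MSCs, 5.06 in P-MSCs and 10.9 in A-MSCs. Vdr, the vitamin D receptor, had a log2 fold change of 0.92 (adjusted p = 0.0547).

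Other secreted factors that act on osteoclasts numbered 32, of which 22 were tested: 13 rose, 4 fell and 5 did not pass (24.8% higher and 22.4% lower among all tested genes), with a median of 1.0. Spp1 averaged 49580 TPM in fBM-MSCs, 5300 in vBM-MSCs, 221.4 in P-MSCs and 363.2 in A-MSCs (log2 fold change 5.80 ± 0.45, adjusted p = 1.84e-06). Il1rn, the IL-1 receptor antagonist, averaged 23.5 TPM in vBM-MSCs, 7.02 in fBM-MSCs and 0.093 in A-MSCs, and was at 0 in every P-MSC library. Ccl9, an osteoclast chemokine, averaged 25 TPM in fBM-MSCs, 37.6 in vBM-MSCs, and 7.03 and 1.67 in A-MSCs and P-MSCs (3.17 ± 0.41, adjusted p = 8.2e-05).

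Among those that fell, Efnb2, the ephrin ligand of EphB4, had a log2 fold change of −1.42 ± 0.12 (adjusted p = 2.61e-06). Sema3a, an inhibitor of osteoclast formation, had −1.32 ± 0.22 (adjusted p = 0.000447) and was highest in P-MSCs at 51.8 TPM, while its vBM-MSC libraries (11.06 to 12.59 TPM) were above those of A-MSCs (5.77 to 7.28). Il6 had −1.24 ± 0.22 (adjusted p = 0.000709) but averaged 6.97 TPM in fBM-MSCs and 93.7 in vBM-MSCs, so the bone marrow sources stood on either side of the 24.7 TPM of P-MSCs. Tnf, Il1b and Osm were at 0 in all libraries.

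Genes that act downstream of RANK were measured in all sources. Of 27 such genes 25 were tested, 7 rose, 3 fell and 15 did not pass, with a median of 0.12. Among all tested genes 24.8% were higher, 22.4% lower and 47.2% different in either direction, and the list was near these shares. Nfatc1, the main osteoclast transcription factor, averaged 13.5 TPM in fBM-MSCs, 11.6 in vBM-MSCs, 2.38 in P-MSCs and 5.68 in A-MSCs (log2 fold change 1.79 ± 0.23, adjusted p = 8.36e-05). Mitf, a transcription factor of the osteoclast lineage, was higher from levels of at most 2.32 TPM (2.0 ± 0.27, adjusted p = 9.75e-05). The kinases Mapk14 (−1.01 ± 0.13, adjusted p = 5.86e-05), Chuk (−0.97 ± 0.11, adjusted p = 3.59e-05) and Src (−0.29 ± 0.11, adjusted p = 0.0462) were lower.

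Genes of the osteoclast itself were mixed. Of 15 markers 11 were tested, 6 rose and 1 fell, where 24.8% of all tested genes were higher and 22.4% lower. Their sum was 383 to 532 TPM in fBM-MSCs, 309 to 444 in vBM-MSCs, 177 to 187 in P-MSCs and 226 to 232 in A-MSCs. Ctsk, a protease that fibroblasts also express, averaged 221.1 and 195.7 TPM in fBM-MSCs and vBM-MSCs, and 65.9 and 63.8 in A-MSCs and P-MSCs. Atp6v0d2, a proton pump subunit, averaged 19.6 TPM in fBM-MSCs and 0.47 in vBM-MSCs and had no count in A-MSCs or P-MSCs, so its bone marrow counts came nearly all from fBM-MSCs. Itgb3 also rose, and Car2, at no more than 2.16 TPM, fell. The count that fell was 0 without P-MSC replicate 1 and 2 without vBM-MSC replicate 2. Dcstamp, which osteoclasts need to fuse, was at 0 in all libraries, and Calcr and Ocstamp reached at most 0.26 and 0.60 TPM. Mmp9, a protease that did not pass, had 5.51 to 8.87 TPM in fBM-MSCs, at most 0.05 in vBM-MSCs and at most 2.61 elsewhere.

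The pooled ATAC-seq lists were then searched for accessible summits with a −log10 q of at least 7 within 100 kb of each gene. Summits of different lists within 250 bp of the next were joined, which gave 155 regions at the 5 genes. Of these 47 were in all 4 lists, 33 in bone marrow lists only and 43 in non-bone marrow lists only. Over the genome, 30.2% of 103643 such regions were in all 4 lists, 22.1% in bone marrow lists only and 25.4% in non-bone marrow lists only. With 1 list per source there is no replicate, so the values are given side by side without a test.

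At Tnfrsf11b, a promoter summit lay about 0.12 kb upstream of the start site in every list, as did one for 83.1% of tested genes. Fold enrichment over background there reached 13.2 in fBM-MSCs, 11 in vBM-MSCs, 9.93 in P-MSCs and 11.4 in A-MSCs. The order of the promoter values was not that of the RNA, which was highest in vBM-MSCs. Of 16 regions 5 were in all lists and 6 in bone marrow lists only, beside 30.2% and 22.1% of regions over the genome. Those 6 were 4 in vBM-MSCs alone and 2 in fBM-MSCs alone, with fold enrichments of 5.52 to 6.99. None passed the threshold in both bone marrow lists and in neither other list, as 3.66% of regions over the genome did. With all listed summits, of any q, 4 regions were in both bone marrow lists and neither other list.

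At Tnfsf11, the promoter summit passed only in A-MSCs (fold enrichment 5.52, −log10 q 7.24) and was below the threshold in P-MSCs (4.78, −log10 q 5.41). In fBM-MSCs and vBM-MSCs no promoter summit was listed, whereas 87.1% and 89.0% of tested genes had one past the threshold there, and 88.8% in P-MSCs and 89.6% in A-MSCs. The RNA of the gene was detected in these sources at the few counts given above. No summit past the threshold lay within the gene in any list.

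Tnfsf11 is known to be controlled by distant upstream elements, and 10 of its 13 regions lay upstream by 22.18 to 90.05 kb. The region 68.14 kb upstream, whose sequence is shown above, had a fold enrichment of 34.2 in P-MSCs and 32.0 in A-MSCs but only 8.83 for vBM-MSCs and 6.25 for fBM-MSCs. The region 75.45 kb upstream had the opposite order, with 12.9 in fBM-MSCs and 6.99 in vBM-MSCs. There A-MSCs and P-MSCs had summits under the threshold, at 5.15 (−log10 q 6.33) and 3.68 (−log10 q 3.0). The sites 22.18, 22.94, 55.24 and 90.05 kb upstream were in all 4 lists.

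At Tnfrsf11a, the promoter was accessible in P-MSCs (fold enrichment 8.83) and vBM-MSCs (7.36) and below the threshold in A-MSCs (4.78) and fBM-MSCs (4.41). P-MSCs, which had the highest counts of the gene, also held 3 intronic summits, 9.61, 18.37 and 52.3 kb past the start site, with fold enrichments of 5.89 to 7.36. The vBM-MSC list held 1 intronic summit past the threshold, and the A-MSC and fBM-MSC lists none. Summits under the threshold were listed at 9.61 kb in fBM-MSCs (4.78, −log10 q 5.38) and at 18.37 kb in A-MSCs (3.68, −log10 q 3.06).

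Csf1 lay in a broad accessible domain. Its promoter reached a fold enrichment of 23.5 for fBM-MSCs, 18.4 in vBM-MSCs, 23.5 in P-MSCs and 22.8 in A-MSCs, above at least 92.8% of the summits of each list. Regions past the threshold covered 57.7% of the gene in fBM-MSCs, 41.1% in vBM-MSCs, 57.9% in P-MSCs and 84.8% in A-MSCs, against a median of 3.19 to 4.0% over 11519 genes. These shares were at the 98.4th to 99.7th percentile of all genes in their lists.

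Within 100 kb of Csf1, 77 summits were listed in A-MSCs, 56 in fBM-MSCs, 53 in P-MSCs and 46 in vBM-MSCs. Of 83 regions 18 were in the A-MSC list only, 7 in that of fBM-MSCs, 5 in that of P-MSCs and 3 in that of vBM-MSCs. Over the genome 10.6, 11.1, 8.05 and 7.31% of regions were in these lists only. These counts rest on summits past the threshold. Some of the regions in the A-MSC list only had summits under the threshold in other lists, and others had no summit of any q there. The number of regions also depended on how summits were joined: with a matching distance wider than 250 bp, Csf1 had 54 regions. The strongest intronic region, 16.61 kb past the start site between the alternative last exons, had a fold enrichment of 35.7 in A-MSCs against 21.7 in P-MSCs and 16.9 in both bone marrow lists. Just past the end of the gene, 20.76 kb from its start, another had 42.7 in A-MSCs, 26.1 in P-MSCs, 24.3 in fBM-MSCs and 17.7 in vBM-MSCs. A region 3.27 kb upstream had 20.6 in A-MSCs and 19.5 in P-MSCs but 6.99 in fBM-MSCs and 6.25 in vBM-MSCs. The RNA level of Csf1 showed no difference of this size between sources.

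**Figure D4:**
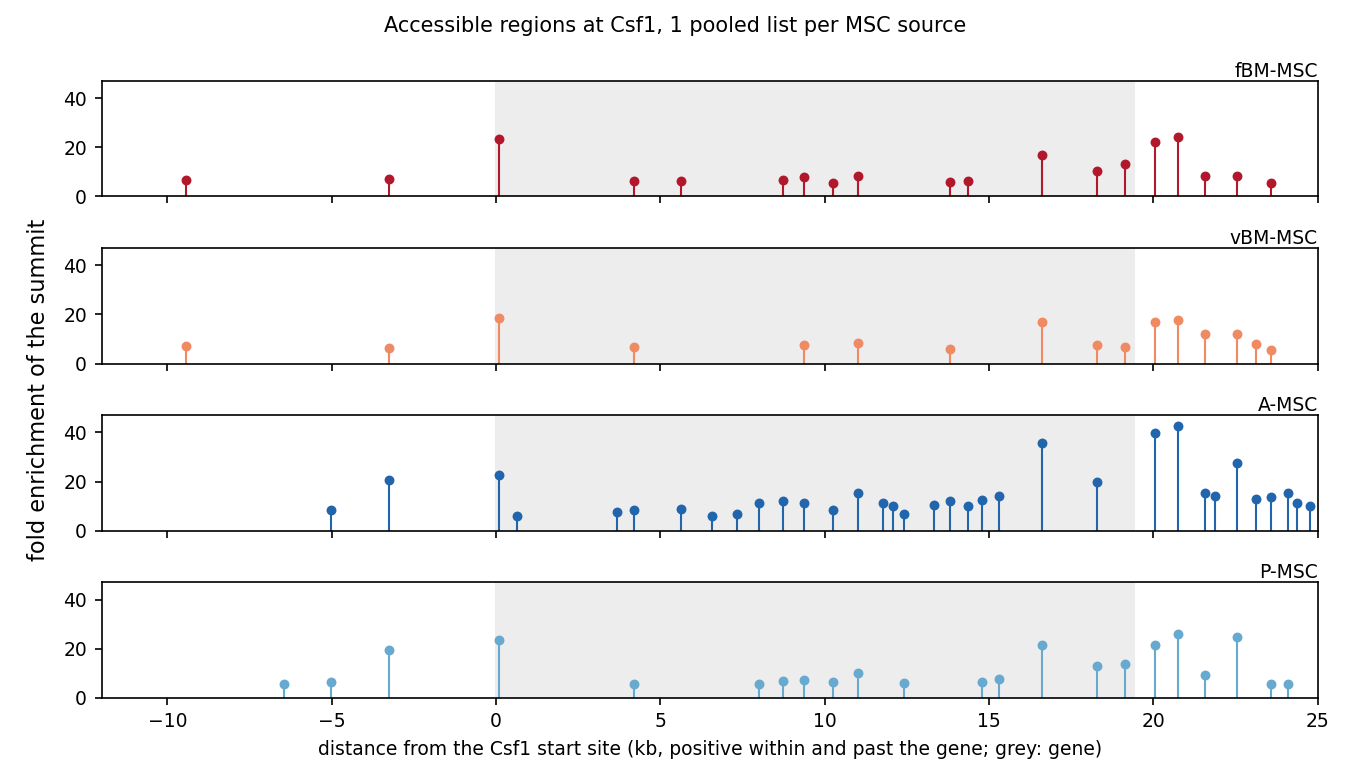
Accessible regions at Csf1 by distance from its start site in kb (x axis, the gene in grey) with the highest summit's fold enrichment (y axis, starting at 0), 1 panel per pooled list. The A-MSC panel is the most crowded and the highest, reaching 42.7, while the promoter point at 0.1 kb is similar in all 4.

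At Il34, no summit of any q lay within 1 kb of the annotated start site in any list, which was so for 3.82% of tested genes. A predicted transcript, not among those counted in the files, begins within intron 1 at chr8:110790811, 15113 bases from the annotated start. The region nearest to it, 423 bases away, passed the threshold in A-MSCs only (fold enrichment 8.09), the source with the least Il34 RNA. Summits under the threshold were listed there in fBM-MSCs (4.05, −log10 q 3.75) and vBM-MSCs (4.05, −log10 q 3.73), and none in P-MSCs. The strongest site of the gene lies 1613 bases past that predicted start, and its sequence is shown above. It reached a fold enrichment of 23.2 for fBM-MSCs, 30.9 in vBM-MSCs, 22.4 in P-MSCs and 15.1 in A-MSCs, so it was accessible in sources with little Il34 RNA as well. The intronic sites 25.75 and 12.2 kb past the start were also in all 4 lists, with 9.20 to 12.9 and 5.89 to 15.5.

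A site in intron 2 of Il34, 51.06 kb past the start, was in both bone marrow lists and had no summit of any q in A-MSCs or P-MSCs. Its fold enrichment was modest, 6.62 in fBM-MSCs and 7.36 in vBM-MSCs. In fBM-MSCs it spanned chr8:110754557-110755040 (484 bases), and in vBM-MSCs chr8:110754820-110755958 (1139 bases), which runs across exon 2 (chr8:110755231-110755650). The 221 bases in both are those shown above. Of the 30 regions near Il34, 3 passed the threshold in both bone marrow lists and in neither other list, as did 3.66% of regions over the genome. Besides the intron 2 site these lay within Vac14, a neighbouring gene. That at 141.2 kb had a summit under the threshold in A-MSCs (fold enrichment 4.78, −log10 q 5.46). That at 129.03 kb had no summit of any q in A-MSCs or P-MSCs.

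Upstream of Il34, a region at 4.17 kb had 24.3 in vBM-MSCs, 12.1 in fBM-MSCs, and 10.3 and 6.99 in A-MSCs and P-MSCs, and one at 9.59 kb, within Sf3b3, had 28.7 in A-MSCs, 24.3 in vBM-MSCs, 22.1 in P-MSCs and 11 in fBM-MSCs. Neither was confined to the bone marrow lists. Csf1 and Il34 are overlapped by RNA genes on the other strand (Gm40121 at Csf1, and Gm15894, Gm39250 and Gm15895 at Il34), and Smart-seq2 reads do not mark strand, so reads of such transcripts could not be told apart where exons overlap.

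**Figure D5:**
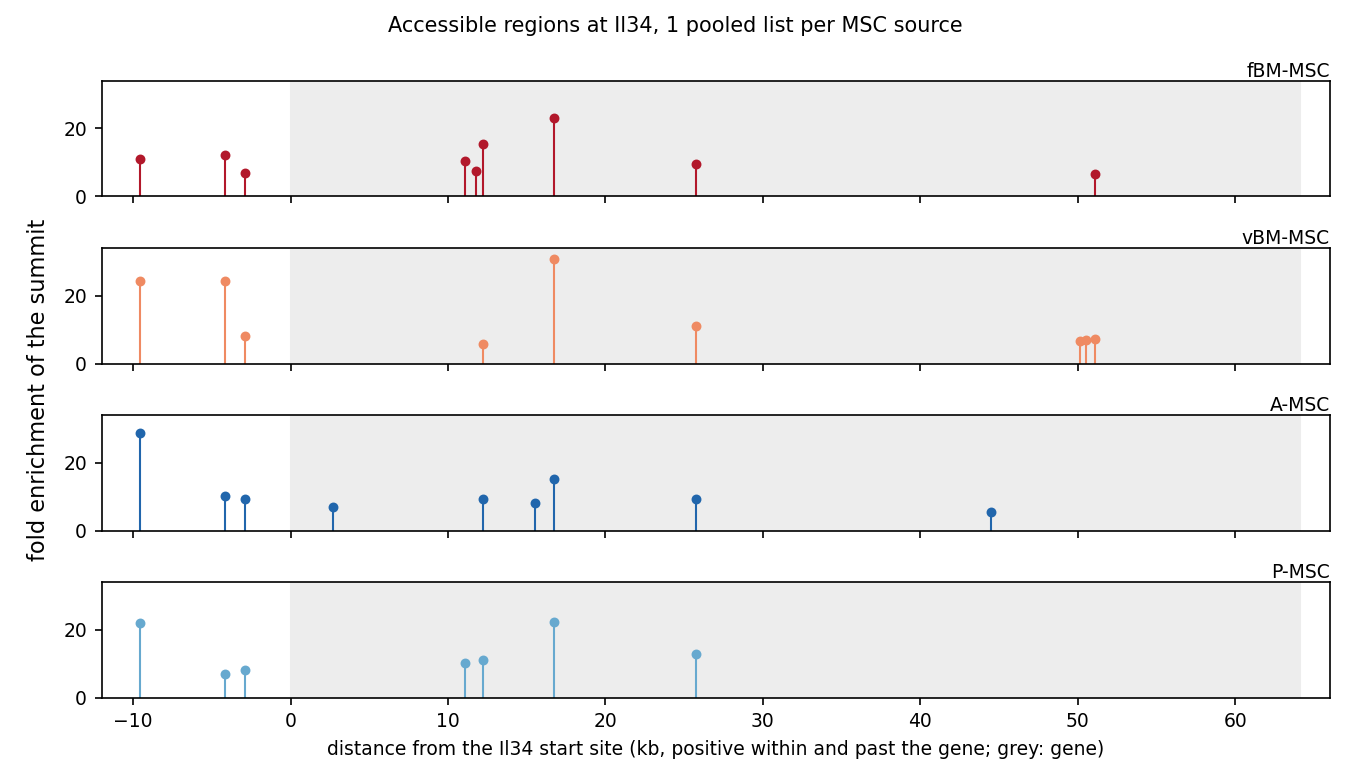
Accessible regions at Il34 by distance from its start site in kb (x axis, the gene in grey) with the highest summit's fold enrichment (y axis, starting at 0), 1 panel per pooled list. No list has a point at 0 kb, all have one at 16.73 kb, and the points near 51 kb appear in the bone marrow panels alone.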

How the data were processed

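RNA-seq was made by Smart-seq2, and the authors aligned paired reads to mm10 with RSEM and STAR. Per the file headers RSEM gave expected counts, TPM, FPKM and mean transcript length per gene in the deposited files. ATAC-seq reads were trimmed (Trim Galore), aligned to mm10 (Bowtie), freed of duplicates (Picard), shifted for the transposase and freed of blacklisted reads, and the authors called peaks with MACS2 on pooled samples of each source (24 samples, 6 per source, which are 3 replicates each sequenced in 2 runs). The deposited lists hold the fold enrichment of each summit, a ratio over the genome-wide background without a local one, with its −log10 q as MACS2 gave it. Versions are not given in the sources used here.

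For the tests the expected counts, rounded to whole numbers, entered edgeR 4.0.16 (R 4.3.3) with its quasi-likelihood test after TMM scaling, in 1 model of 4 sources over 11 libraries, for 12509 genes with at least 1 CPM in at least 2 libraries; p-values were adjusted by Benjamini-Hochberg over all of them. Bone marrow against non-bone marrow is the mean of fBM-MSCs and vBM-MSCs against that of A-MSCs and P-MSCs. Levels are TPM, which are per length. Library totals were 19569650 to 40517739 expected counts, and a library at 0 allows up to 3 counts. Ratios of genes were tested by exact two-sided permutation over libraries (scipy 1.17.1). On simulated counts with known changes the test was checked first. DESeq2 1.42.0 and limma-trend (limma 3.58.1) on log2(TPM + 1) and log2(TPM + 0.1) were alternatives, with other scalings, no filter, each library left out, and other thresholds for regions. No source used here says that replicate numbers pair the libraries, so the main model had no block.

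The genes, gene lists and comparisons were chosen with earlier results of these data known. Named beside the 5 genes were, of each list, the 3 genes with the largest change among those that passed in each direction, the 3 genes most like each gene over the libraries, and defining markers; 1 gene that this rule named is not reported here. Vdr, Tnf, Il1b, Osm, Adam10, Adam17 and Mmp14 were named after their values were seen. Sequences came from RefSeq's GRCm38.p6 promoter table and genome (samtools 1.23.1).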

Additional observations from a re-analysis of the deposited data

How the results depend on the processing

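The 4 tested genes kept their side of the threshold of bone marrow over non-bone marrow MSCs under every alternative scaling, filter and tool and without any 1 library. The log2 fold change of Il34 was 3.99 to 4.61 over the other settings and 4.47 to 4.72 with each library left out, and that of Tnfrsf11b 1.61 to 1.68 and 1.54 to 1.78. Without any 1 library Csf1 was −0.06 to 0.15 and Tnfsf11 −2.43 to 3.89. The ratio of Tnfsf11 to Tnfrsf11b was −1.299 with a pseudocount of 1 (adjusted p = 0.0455, exact permutation) and −1.98 to −0.48 with each library left out. Tnfrsf11a failed the filter and was fitted only without it.

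Counts of genes differing between fBM-MSCs and vBM-MSCs, 1601 in all, were 305 in a model of those sources alone and 610 to 1961 with each library left out, 610 without vBM-MSC replicate 1. With replicate numbers as a replicate block no call of the 4 tested genes changed, and the log2 fold changes were 4.56 (Il34), 1.61 (Tnfrsf11b), 0.02 (Csf1) and 1.21 (Tnfsf11). In that fit 2 osteoclast markers fell in place of 1. Numbers shared by libraries of different sources gave correlations of deviations of −0.036 to 0.114 over 15 pairs, 1 of them over 0.1. With so few libraries per source the deviations are tied to each other, so these values cannot decide whether the numbers are pairs. The numbers were not treated as pairs. Regions near the 5 genes were 80 at a −log10 q of at least 20. Those in both bone marrow lists and neither other list, 6 in all, were 14 with all listed summits, 2 at a −log10 q of at least 20 and 2 within 50 kb. Tnfsf11 varied between libraries of a source by more than counting error, Tnfrsf11a rested on at most 22 counts a library, and the pooled region lists have no replicates.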
